A study of Torulaspora delbrueckii with 9 samples.

Results

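Binding of Orc1 and of Orc4, subunits of the origin recognition complex (ORC), was compared across the genome of the budding yeast Torulaspora delbrueckii from chromatin immunoprecipitation followed by sequencing (ChIP-seq). The comparison used 7 of the 9 samples of the study. They were 2 immunoprecipitates of Orc1 carrying a MYC tag (strains LRY3204 and LRY3211), 2 of Orc4 carrying a V5 tag (LRY3138 and LRY3139), and the untagged strain JRY10156 as 2 genomic inputs and 1 mock immunoprecipitate. All cultures were grown in rich medium with glucose at 30 °C and fixed in 1% formaldehyde for 1 hour. The 4 immunoprecipitates each had a peak list, and the input and mock samples entered only as controls of the peak calls. Peaks of the 4 lists that shared at least 1 bp were merged, which gave 490 regions, 302 of them in an Orc1 list and 403 in an Orc4 list.

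ORC is the protein assembly that binds replication origins and loads the MCM helicase there before S phase. Orc1 and Orc4 are both subunits of the ATPase family within it. In Saccharomyces cerevisiae Orc4 inserts a helix into origin DNA, and Orc1 has a BAH domain that contacts nucleosomes. The silencing protein Sir3 of S. cerevisiae arose from a copy of ORC1. T. delbrueckii branched off before that copy arose. In Kluyveromyces lactis, which has no such copy, Orc1 itself takes part in silencing. Where Orc1 and Orc4 coincide and where they part is therefore the question the comparison addresses. Gene roles given below are those of the S. cerevisiae genes of the same name.

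Subunit, tag, antibody and control changed together between the groups, because the Orc1 lists were called against a genomic input and the Orc4 lists against the mock immunoprecipitate. Differences between subunits cannot be told apart from those of tag, antibody or control. The Orc1 libraries also differed from each other in the peak names, where library 1 holds the word SIR and library 2 the word Kos3V5. All peak names hold the word subsample and give the control a strain number other than the labelled one. The labels explain none of this. Libraries of 1 subunit carry different strain numbers but are described as technical replicates, so the spread between them may be technical. With 2 libraries a subunit, the exact permutation test over the 4 libraries (6 splits, two-sided) cannot give a p below 0.333. Differences are therefore set against the spread between libraries, and a difference is called separate where both Orc1 values lie on 1 side of both Orc4 values.

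The lists differed in length. Orc1 had 263 peaks in library 1 and 300 in library 2, and Orc4 had 408 in library 1 and 248 in library 2. Median fold enrichment over the control, the authors' value per peak, was 6.50 and 6.23 in the Orc1 lists and 3.84 and 10.8 in the Orc4 lists. The highest values were 21.2 and 21.5 for Orc1 and 73.2 and 52.6 for Orc4. These levels are relative to different controls, so ranks within a list are used below.

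Most strong sites of either subunit held both. A peak was present in both lists of both subunits at 200 of 490 regions (40.8%), called common regions here. Of 226 regions in both Orc1 lists, 88.5% were common (95% interval 83.6% to 92.3%), and of 224 regions in both Orc4 lists, 89.3% were (84.5% to 93.0%; Clopper-Pearson, counting error over regions only). Each list was ranked by −log10 q and divided into 4 rank classes of equal size. In rank class 1, the strongest, 102 of 102 Orc4 peaks in library 1 and 62 of 62 in library 2 lay in both Orc1 lists. Orc4 library 2 kept 62 of 62 in rank classes 2 and 3 too. The first Orc4 peak without any Orc1 peak stood at rank 183 in library 1, between CAR2, an ornithine aminotransferase gene, and DIF1, and at rank 188 in library 2, in BPH1.

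Among Orc1 peaks the share was also high, with exceptions near the top. In rank class 1, both Orc4 lists held 63 of 66 peaks from Orc1 library 1 and 71 of 75 from library 2. The first Orc1 peak without Orc4 stood at rank 7 in library 1, over the ferric reductase gene FRE4, and at rank 5 in library 2, at the left end of chromosome 2. In rank class 4 the shares found in both lists of the other subunit were 56.9% and 14.7% for the Orc1 lists and 4.9% and 50% for the Orc4 lists.

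**Figure D1:**
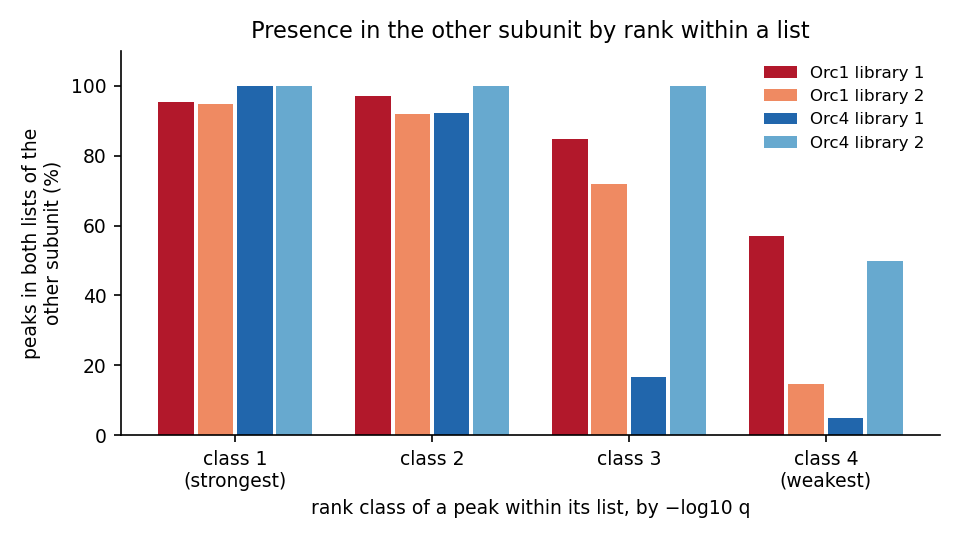
Bars give, for each list, the percentage of its peaks that lie in both lists of the other subunit, by rank class of −log10 q. Both Orc4 lists reach 100% in rank class 1, and the longest list, Orc4 library 1, stands at 16.7% in rank class 3.

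Common regions lay on all 8 chromosomes. They numbered between 19.9 per Mb on chromosome 2 and 23.2 per Mb on chromosome 3. Neighbouring common regions lay a median of 48.5 kb apart (quartiles 26.6 and 64.9 kb, 192 gaps). Of the 200, 17 lay within 20 kb of a chromosome end, 23 at 20 to 100 kb and 160 farther in.

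Some regions in both Orc1 lists alone lay near chromosome ends. Regions in both Orc4 lists alone were placed much as common regions were. A peak in both Orc1 lists and no Orc4 list was found at 20 regions (4.08% of 490), of which 5 lay within 20 kb of an end, 6 at 20 to 100 kb and 9 farther in. The reverse pattern was found at 21 regions (4.29%), of which 0 were within 20 kb of an end, 3 at 20 to 100 kb and 18 farther in. Over all 490 regions, 15.9% were within 20 kb of an end, and of the common regions 8.5% were. Over 100 kb from an end lay 80% of common regions and 85.7% of the Orc4 regions without Orc1. Some of the 5 Orc1 regions nearest an end neighboured a common region at the same end. These were chr1:1271-3403 (beside chr1:1-1135), chr8:2042-3324 (beside chr8:1-1801) and chr8:821558-832438 (beside chr8:832861-833999). In the first 5 kb from an end, Orc1 peaks lay over 44.5% and 81.5% of the sequence. An Orc4 peak there could therefore easily merge with an Orc1 peak, and how far merging set these numbers was not tested. Among regions in 1 Orc4 list alone, each Orc4 library had 1 within 20 kb of an end. The counts of 20 and 21 regions rested on having 2 lists. Regions of Orc1 without Orc4 numbered 84 without Orc1 library 1 and 49 without Orc1 library 2, and those of Orc4 without Orc1 numbered 182 without Orc4 library 2.

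The 3 strongest Orc1 regions without Orc4 were wide and lay 1.74 to 25.7 kb from an end. At the left end of chromosome 2 (chr2:1-17323) fold enrichment was 15.8 and 17.7 and the peaks covered 7709 and 17323 bp in libraries 1 and 2. Over FRE4 on chromosome 4 (chr4:1192153-1197312) it was 12.8 and 10.6, with 4898 and 5160 bp. Near the right end of chromosome 8 (chr8:821558-832438), beside TDEL0H04540, it was 7.64 and 9.43, with 4089 and 10881 bp. In each of these 3 regions library 1 listed several peaks where library 2 listed 1. The last of the 3 neighboured the common region chr8:832861-833999, which was nearer the end.

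The strongest 10 were taken by the lower fold enrichment of the 2 libraries, and the other 7 were farther in. Between IRC22 and SGN1 on chromosome 8 (chr8:507645-508001) fold enrichment was 6.02 and 6.76 over 306 and 353 bp. In SLA2, an endocytosis gene that borders the mating-type locus in many budding yeasts (chr3:1050693-1051897), it was 5.54 and 10.0. Between HAT1, a histone acetyltransferase gene, and LOC1 (chr3:204969-205335) it was 4.12 and 4.49. Lower values came between PHO80 and RRP6 (3.39 and 5.06), between EFM5 and ERG26 (3.17 and 3.85), between TOP3, a topoisomerase gene, and TDEL0F05390 (3.71 and 3.01), and between the RNA polymerase I genes RPA43 and RPA190 (2.91 and 3.03). The region in TDEL0C05810 (chr3:1048435-1050198) tied with the last of these in library 1, at 2.91, and was higher in library 2, at 4.65. Of all 20 regions, 8 were on chromosome 8, and 3 of these lay beside ribosomal RNA genes, at 2.27 to 3.0. Ribosomal DNA is repetitive, and how the authors placed reads from repeats is not given in the sources used here, so these 3 are uncertain.

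Orc4 regions without Orc1 had lower fold enrichment than common regions in both Orc4 lists, by their medians. In BPH1 on chromosome 6 (chr6:551929-552330) the Orc4 lists gave 4.8 and 4.39, and between APL1 and SAG1, a gene for a cell-surface adhesin of mating, on chromosome 5 (chr5:750849-751402) they gave 5.94 and 3.36. Between YEA4 and the prefoldin gene GIM4 (chr8:499258-499679) the values were 4.07 and 3.08. Between CAR2 and DIF1 (chr4:186373-186964) they were 4.53 and 2.94. Others of the strongest 10, taken in the same way, lay between IBD2 and RIA1 (3.59 and 2.89), beside ATP10 (3.08 and 2.8), between the meiotic recombination gene MND1 and GTS1 (3.18 and 2.64), in the stress gene HSP12 (3.82 and 2.55), beside the glutamate dehydrogenase gene GDH1 (2.90 and 2.44) and in the tRNA methyltransferase gene TRM1 (3.54 and 2.36). The median over the 21 regions was 3.34 in library 1 and 2.31 in library 2. At the common regions of the same lists it was 17.9 and 12.5. The 20 Orc1 regions without Orc4 also had lower medians in the Orc1 lists, 2.95 and 4.28, against 7.63 and 8.41.

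Most regions seen once came from 1 library of each subunit. Orc4 library 1 supplied 161 of the 167 regions in 1 Orc4 list and no Orc1 list, and 140 of these 161 were over 100 kb from an end. Orc1 library 2 supplied 62 of the 67 regions in 1 Orc1 list and no Orc4 list, and 49 of these 62 (79.0%) were within 20 kb of an end. Their median fold enrichments were 2.14 for Orc4 library 1 and 2.37 for Orc1 library 2. A further 6 regions were in both Orc1 lists and 1 Orc4 list, 3 in both Orc4 lists and 1 Orc1 list, and 6 in 1 list of each subunit. The strongest in both lists of a subunit lay at chr7:34324-39641, beside the tRNA gene TDEL0Gtrna5V, with 12.1 and 12.5 in the Orc1 lists, 3.0 in Orc4 library 1 and no peak in Orc4 library 2.

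Summits of Orc1 and Orc4 at a common region were close but did not coincide. The summit is the position of highest signal in a list's strongest peak of a region. The median distance between the 2 Orc4 libraries was 8 bp and between the 2 Orc1 libraries 22.5 bp. For the 4 pairs of an Orc1 with an Orc4 library it was 42 to 48.5 bp. A distance of at most 25 bp was found at 80% of regions between the Orc4 libraries, at 56% between the Orc1 libraries and at 30% to 32% across the subunits. Both Orc1 summits lay on the same side of both Orc4 summits at 145 of 200 common regions (72.5%). They lay to the right at 78 (39.0%) and to the left at 67 (33.5%).

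**Figure D2:**
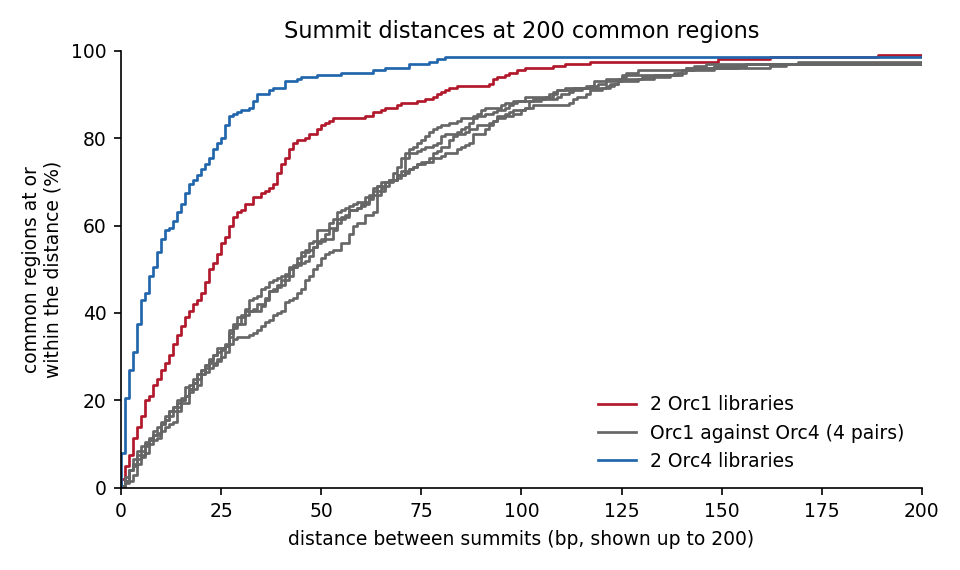
Curves give the percentage of the 200 common regions whose summits lie within a distance (bp) of each other, for the 6 pairs of libraries. The 4 curves of Orc1 against Orc4 run together and below those of the 2 libraries of either subunit, with medians of 42 to 48.5 bp against 22.5 and 8 bp.

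The offset was found in the interior as well as near the ends. The median distance between the mean Orc1 and the mean Orc4 summit was 39 bp at the 160 regions over 100 kb from an end and 65.5 bp at the 17 within 20 kb of one. Over all 200 regions, 51 had an offset under 20 bp, 46 of 20 to 40 bp, 39 of 40 to 60 bp and 21 of 100 bp or more. It had no common direction relative to the nearer chromosome end. Over 100 kb from an end, Orc1 summits lay towards it at 61 regions and away from it at 59.

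At common regions, fewer Orc1 than Orc4 summits lay outside annotated genes. At the 200 common regions the summit was outside genes at 151 (75.5%) and 156 (78%) for the Orc1 libraries and at 180 (90%) and 177 (88.5%) for the Orc4 libraries. The groups did not overlap, and the difference was −12.5 percentage points (Orc1 76.8% ± 1.77, Orc4 89.2% ± 1.06, SD, n = 2 libraries each; exact permutation p = 0.333, the smallest possible). At 19 regions both Orc4 summits were outside genes and both Orc1 summits inside, and at 1 region it was the other way round. Where both Orc4 summits lay between 2 genes, Orc1 was displaced towards the nearer gene at 69 of 167 regions and towards the farther gene at 54. Over all peaks of a list the groups overlapped, with 72.6% and 72% outside genes for Orc1 and 69.9% and 83.5% for Orc4. At common regions the difference was −11.1 to −13.4 points with any 1 of the 4 libraries left out.

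Beside tRNA genes, Orc1 summits mostly lay farther from the tRNA gene than Orc4 summits, and Orc1 ranks were mostly lower. At the 43 common regions within 1000 bp of a tRNA gene, both Orc1 summits lay farther from that gene than both Orc4 summits at 24 and nearer at 6 (9 to 11 when any 1 library was left out, which exceeds 1.5 times for all but Orc4 library 2). Both Orc1 ranks were lower than both Orc4 ranks at 28 of the 43 (65.1%), against 36.5% of all common regions, and both Orc1 widths were smaller at 19 (44.2%), against 19.0%. Over 100 kb from an end, where most of the 43 lay, these shares of common regions were 41.9% and 23.8%.

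By the rule of the largest offset among the 180 regions with a single peak in every list, the first was the right end of chromosome 4 (chr4:1211984-1218143). Orc1 summits there stood at 1217731 and 1217721 and Orc4 summits at 1216079 and 1216084, a shift of 1.64 kb towards the end. At the left end of chromosome 8 (chr8:1-1801), Orc1 summits were at 126 and 812 and Orc4 summits at 894 and 893. The Orc1 libraries differed there by 686 bp, more than the mean offset of 424.5 bp. Between TVS1 and the tRNA gene TDEL0Atrna10S (chr1:1298916-1299826) the offset was 229 bp, with Orc1 at 1299391 and 1299395 and Orc4 at 1299611 and 1299633, on the tRNA side. Between TOM1, a ubiquitin ligase gene, and TDEL0A04420 (chr1:789469-790575) it was 151 bp. Near FMP33 on chromosome 3 (chr3:645094-645766) it was 155.5 bp. The Orc4 libraries disagreed there, at 645429 and 645149, and the Orc1 summits were at 645424 and 645465. In RGL1, next to the helicase subunit gene MCM7 (chr2:558456-559358), it was 121 bp.

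Other regions had almost no offset. It was 1 bp in REV1, a translesion polymerase gene (chr8:695654-697448), 1 bp in TDEL0D06520 (chr4:1169432-1170481) and 1.5 bp beside the siderophore transporter gene ARN2 (chr8:8170-8884).

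At a few regions near the ends the strongest Orc1 and Orc4 signals stood kilobases apart. An offset of over 300 bp, a limit chosen after the values were seen, was found at 5 of the 200 regions, and 4 of the 5 were within 20 kb of an end. The region over the mating-type genes HMLALPHA1 and HMLALPHA2 (chr3:1269147-1282970) had Orc4 summits at 1270302 and 1270300, between VAC17 and TDEL0C06990, on the left of the mating-type genes. Its Orc1 summits were at 1276193 and 1276176, between HMLALPHA1 and TDEL0C07020, on their right. The distance was 5.88 kb, while the libraries of a subunit differed by 17 and 2 bp, and neither Orc4 list had a peak over the mean Orc1 summit. Both Orc1 lists had a peak over the mean Orc4 summit.

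At the left end of chromosome 7 (chr7:1-10251) Orc1 summits were at 1598 and 1518, left of the tRNA gene TDEL0Gtrna8T. Orc4 summits were at 7694 and 7685, between the tRNA gene TDEL0Gtrna4V and TDEL0G00100, 6.13 kb farther in. There, and at the left end of chromosome 8, 1 Orc4 list had a peak over the mean Orc1 summit, and at the right end of chromosome 4 both did. At the left end of chromosome 8 that mean lies between Orc1 summits 686 bp apart. The summit of Orc1 library 2, at 812, was near the Orc4 summits at 894 and 893. The fifth region, chr5:47972-79521, had overlapping summits. The 2 Orc1 summits there differed by 22829 bp and the 2 Orc4 summits by 18621 bp.

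Median widths were close in the interior, and Orc1 peaks were wider near the ends. Width is the summed length of a list's peaks in a region, and how far sequencing depth and the control set it was not tested. Over 100 kb from an end the median width was 960.5 and 968 bp for the Orc1 libraries and 935 and 836.5 bp for the Orc4 libraries. The ratio of Orc1 to Orc4 there was 0.997 (log2 difference −0.00; mean log2 width 9.75 ± 0.04 for Orc1 and 9.75 ± 0.17 for Orc4, SD, n = 2 libraries each; exact permutation p = 1). Within 20 kb of an end the medians were 1679 and 3195 bp for Orc1 and 874 and 864 bp for Orc4. The ratio was 2.62 (log2 difference 1.39; Orc1 11.23 ± 0.43, Orc4 9.85 ± 0.21, SD, n = 2 libraries each; exact permutation p = 0.333, the smallest possible). Over all 200 common regions the ratio was 1.12 (log2 difference 0.16, exact permutation p = 0.667). The interior ratio was 1.08 without Orc4 library 1 and 0.934 without Orc4 library 2.

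Region by region, both Orc1 widths exceeded both Orc4 widths at 71 of 200 common regions (35.5%) and fell short of both at 38 (19.0%). Orc1 was wider at 14 of the 17 regions within 20 kb of an end, at 14 of 23 at 20 to 100 kb and at 43 of 160 farther in. It was narrower at 0, 0 and 38 of these. Wider regions numbered 109 without Orc4 library 1, and narrower ones 62 and 64 without Orc1 library 1 or 2 and 76 without Orc4 library 2. Among the 157 regions not near a tRNA gene, 19 (12.1%) were narrower, against 19.0% of all 200.

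**Figure D3:**
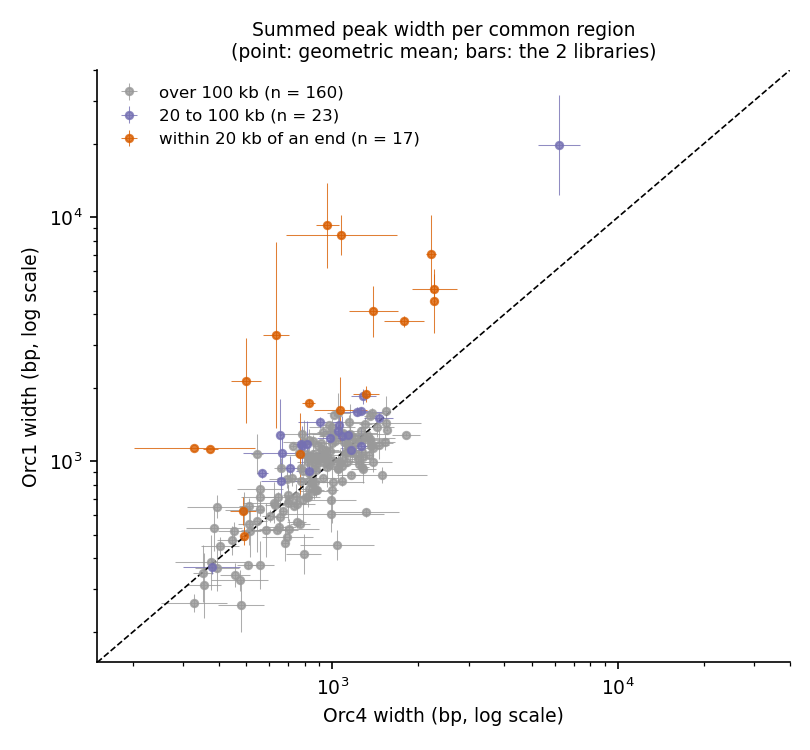
Each point is a common region at its geometric mean width (bp, log scales) in the Orc4 and the Orc1 libraries, with bars to the values of the 2 libraries and a dashed line of equal width. Regions over 100 kb from an end lie along the line, and 14 of the 17 within 20 kb of an end have both Orc1 widths above both Orc4 widths.

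The widest Orc1 regions relative to Orc4 all lay within 20 kb of an end, by the mean of their summits. For the region over HMLALPHA1 and HMLALPHA2 this mean was at 18.7 kb, with Orc1 and Orc4 summits 5.88 kb apart. Over HMLALPHA1 and HMLALPHA2 the widths were 6187 and 13824 bp for Orc1 and 874 and 1053 bp for Orc4, a ratio of 9.64. At the left end of chromosome 7 they were 6998 and 10251 bp against 1678 and 690 bp, a ratio of 7.87. At chr5:1-7889, between TDEL0E00110 and TDEL0E00120, they were 1364 and 7889 bp against 704 and 570 bp, a ratio of 5.18, with the Orc1 libraries far apart. The others among the first 6 were chr8:817688-820882, beside TDEL0H04520 (ratio 4.30), chr1:1-1135 (3.45) and chr1:1407913-1418109, beside TDEL0A08060 (3.21).

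Narrower Orc1 regions differed by less. Between AGA2, a gene for a mating adhesin, and NAT2 (chr6:490023-491417) the widths were 396 and 521 bp for Orc1 and 1395 and 770 bp for Orc4, a ratio of 0.44. In REV1 they were 591 and 645 bp against 1717 and 1000 bp (0.47). Beside the nucleoporin gene NUP192 and the tRNA gene TDEL0Etrna8D (chr5:683321-684235) the ratio was 0.53, and beside FAT1 (chr4:698418-698995) it was 0.54. In each of these 4, Orc4 library 1 gave the largest width.

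Near the ends Orc1 peaks reached farther on both sides. Reach was measured from the mean Orc4 summit. At the 17 common regions nearest the ends, within 20 kb, Orc1 peaks extended a median of 685.5 and 892.5 bp towards the end in libraries 1 and 2, and 538.5 and 1154 bp away from it. Orc4 peaks extended 398 and 406.5 bp towards the end and 367 and 378.5 bp away. Over 100 kb from an end these medians were 390.25 to 479.5 bp in all 4 lists.

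The order of the common regions by fold enrichment differed between the subunits by more than between libraries. Each list was ranked over the same 200 regions, with rank 1 the highest. Spearman's rho across regions was 0.98 between the Orc4 libraries, 0.85 between the Orc1 libraries and 0.69 to 0.72 for the 4 pairs of Orc1 with Orc4. Regions are not independent replicates, and no p is given. Both Orc1 ranks were higher than both Orc4 ranks at 72 regions (36.0%) and lower at 73 (36.5%). All lists rank the same 200 regions, so higher ranks at some entail lower ranks at others. The near balance is thus largely by construction.

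Place on the chromosome went with the direction. Orc1 ranked higher at 11 of the 17 regions within 20 kb of an end, at 11 of 23 at 20 to 100 kb and at 50 of 160 farther in, and lower at 1, 5 and 67 of these. The median rank near the ends was 84 and 58 in the Orc1 libraries and 160 and 158 in the Orc4 libraries. Rank and width went together. Of the 72 regions ranked higher in Orc1, 43 were also wider and 5 narrower, and of the 73 ranked lower, 8 were wider and 23 narrower. Among the 157 regions not near a tRNA gene, 63 (40.1%) ranked higher and 45 (28.7%) lower, against 36% and 36.5% of all 200.

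**Figure D4:**
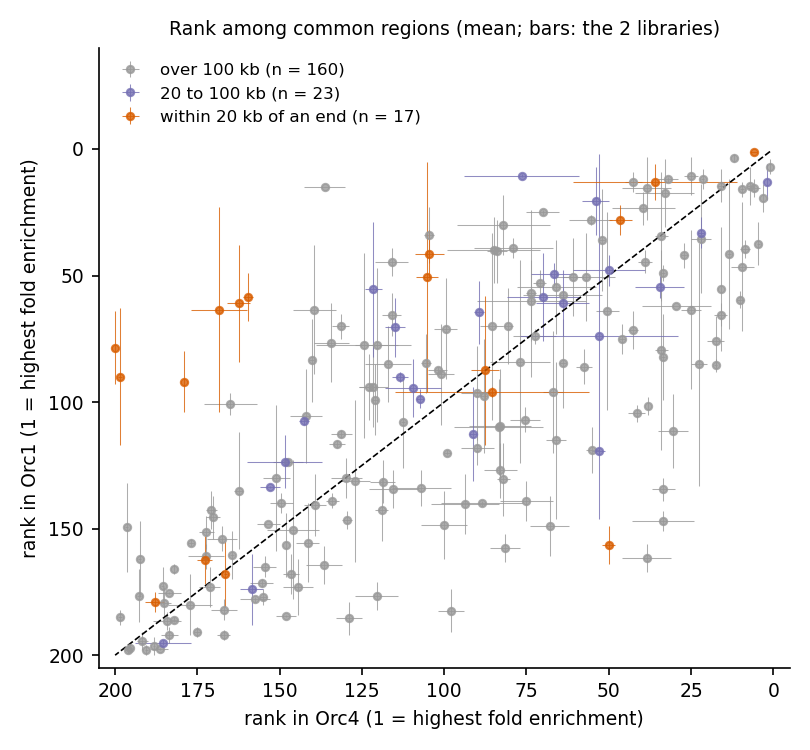
Each point is a common region at its mean rank by fold enrichment among the 200 regions in the Orc4 (horizontal) and the Orc1 libraries (vertical), with bars to the 2 libraries and a dashed line of equal rank. At the left are regions within 20 kb of an end that rank near the bottom for Orc4. Some rank in the upper or middle part for Orc1, such as chr1:1-1135 with ranks of 200 and 200 against 64 and 93. Others rank low for both, such as chr5:1-7889 with 191 and 185 against 183 and 175.

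Of the 8 regions with the largest rank gap in favour of Orc1, 6 lay within 20 kb of an end, against 8.5% of all common regions. At chr1:1-1135, left of TDEL0A00100, the ranks were 64 and 93 for Orc1 and 200 and 200 for Orc4. At chr8:832861-833999, beside TDEL0H04540, they were 63 and 117 against 199 and 198. The HMLALPHA region ranked 104 and 23 against 160 and 177, so that its place for Orc1 differed by library. The regions at chr8:817688-820882, chr7:1-10251 and chr6:1066737-1070682 had mean gaps of 101.5, 101 and 87 ranks. In the HMLALPHA region and at chr7:1-10251 the ranked Orc1 and Orc4 summits stood 5.88 and 6.13 kb apart. Ranks there compare different places within a merged region. The 2 interior members were chr4:466168-467307, beside the deubiquitinase gene UBP6, at 15 and 15 against 142.5 and 130, and chr7:161769-163058, in SSP1, at 38 and 89 against 133 and 146.

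Of the 8 that stood lowest for Orc1 relative to Orc4, 7 were interior, which is near the share of 80% among all common regions. Beside the tRNA gene TDEL0Btrna14G (chr2:1110297-1111107) the ranks were 156 and 167 for Orc1 and 31 and 46 for Orc4. Between SOK1 and the histone H4 gene HHF1 (chr4:784713-786875) they were 151 and 143 against 24 and 43. Between ECM9 and MRPL13 (chr1:523168-524276) they were 139 and 130 against 30 and 37. The right end of chromosome 4 (chr4:1211984-1218143) stood at 149 and 164 against 48 and 52, with Orc1 and Orc4 summits 1.64 kb apart. The remaining 4 lay in APC11, a gene of the anaphase-promoting complex, near TDEL0Htrna7T (mean gap −84.5), between TDEL0D02730 and the ribosomal protein gene RPL26A (−81), between TDEL0D05730 and TDEL0D05740 (−81), and between the tRNA genes TDEL0Atrna6D and TDEL0Atrna7D (−76).

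Over the whole sequence, Orc1 covered more than Orc4 near the ends and not in the interior. In the first 5 kb from an end, peaks lay over 44.5% and 81.5% of the sequence for Orc1 and 17.2% and 13% for Orc4. From 10 to 20 kb these shares were 6.85% and 25.8% against 3.02% and 2.44%, and over 100 kb they were 2.03% and 2.1% against 2.91% and 1.88%. Within 20 kb of the 16 ends Orc1 covered 56.1 and 144.6 kb and Orc4 21.3 and 16 kb, a ratio of geometric means of 4.87 (log2 difference 2.29; Orc1 16.46 ± 0.97 and Orc4 14.17 ± 0.29 as log2 of the covered bp, SD, n = 2 libraries each; exact permutation p = 0.333, the smallest possible). The ratio was 3.04 without Orc1 library 2 and 7.82 without Orc1 library 1. Farther than 100 kb from an end the ratio was 0.882 (log2 difference −0.18; exact permutation p = 1). It was 1.10 without Orc4 library 1 and 0.709 without Orc4 library 2.

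**Figure D5:**
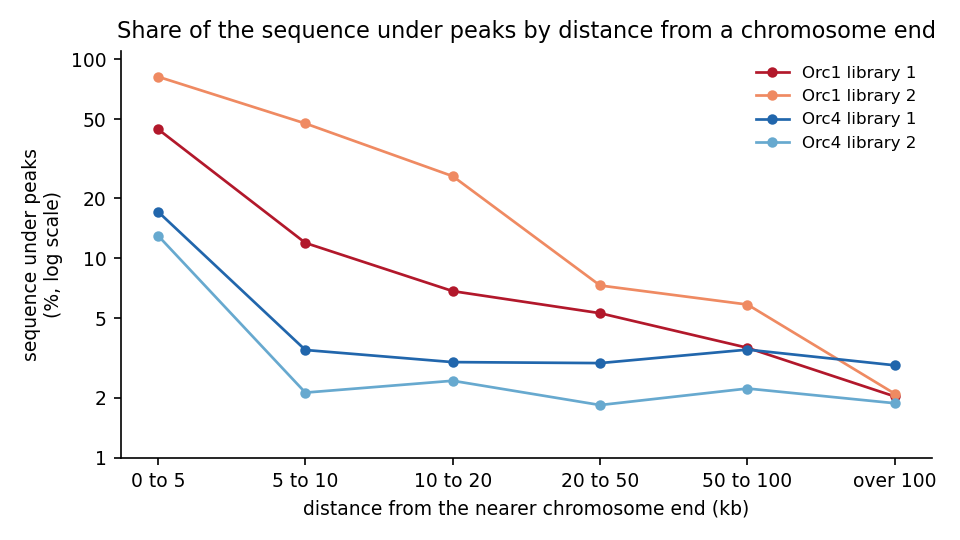
Points give the percentage of the sequence under peaks (log scale) in 6 ranges of distance from the nearer chromosome end, for the 4 lists. The Orc1 lists stand above both Orc4 lists from 0 to 100 kb, narrowly so at 50 to 100 kb, and between them over 100 kb.

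The excess was found at nearly every end. Both Orc1 libraries covered more than both Orc4 libraries at 15 of the 16. On the left of chromosome 3 they overlapped, with 1.2 and 2.56 kb against 1.32 and 0.864 kb. Orc1 library 2 covered more than library 1 at 16 of 16 ends. The right end of chromosome 7 had the least Orc1, with 0.537 and 0.996 kb against 0.502 and 0.478 kb. From 20 to 100 kb the lists covered 54.0 and 82.1 kb for Orc1 and 42.2 and 26.6 kb for Orc4. Orc1 library 2 covered 2.58 times as much as library 1 within 20 kb of an end and 1.03 times as much over 100 kb from one. The part in these results of the words in its peak names was not tested.

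Genes of the replication and silencing machinery had common regions beside them in small numbers. Of all 5174 annotated genes, 6.88% lay at or beside the mean summit position of a common region over the 4 lists. Of the 6 ORC genes it was 2, ORC4 and ORC5, of 27 genes of replication initiation 2, MCM3 and the polymerase alpha gene POL1, of 11 annotated genes of silencing and mating type 2, ABF1 and HMLALPHA2, and of 11 histone genes 1, HHF1. HMLALPHA2 was beside that mean position only. The Orc1 and Orc4 summits of its region lay 5.88 kb apart, and neither was next to HMLALPHA2. Beside ORC5 (chr3:1092012-1093106) Orc1 ranked 46 and 52 and Orc4 ranked 33 and 34, with an offset of 1.5 bp. Beside ORC4 (chr8:92027-92958) ranks were 113 and 134 against 137 and 160, and the offset was 99.5 bp. Beside POL1 (chr6:230212-231290) Orc1 ranked higher, at 105 and 96.5 against 157 and 173. Beside MCM3 (chr3:456579-457504) the ranks were 73 and 96.5 against 104 and 107. Beside ABF1, a gene for a DNA-binding factor of silencers and promoters (chr1:424361-425773), Orc1 ranked 18 and 3 and Orc4 23 and 27, with widths in a ratio of 1.44.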

How the data were processed

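Immunoprecipitates of Orc1 and Orc4 were compared by their deposited peak lists, which the authors called per library. Tools named by the submitters' processing notes were MACS2 2.2.7.1, Bowtie2 2.3.4.1 and cutadapt 2.10. The notes state neither settings nor a genome build, which is not given in the sources used here. In the deposited lists each peak has the authors' fold enrichment over its control (a ratio) and their −log10 p and −log10 q values. Without read counts in the lists, sequencing depth behind a peak is unknown, and the number of libraries limits the precision.

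Per region and list, the peak with the highest −log10 q gave the summit and fold enrichment, and width was summed over peaks. Sequences were numbered 1 to 8 in the order of their names. For each of the 7 that could be checked, summits fell outside genes most often on the chromosome of the same number in the RefSeq gene table of ASM24337v1, from which gene names come. A chromosome was taken to end at its last gene or peak position, 9221 kb in total. The distance of a region from an end was that of the mean of its summits over the lists that held it. Coordinates count from 1 in the files' build. Regions were named by rule: the 8 largest rank gaps each way, the 6 largest and 3 smallest offsets, the 6 widest and 4 narrowest ratios, the 10 strongest regions of each subunit alone by the lower fold enrichment of its 2 lists, and members of 4 gene lists. Regions, lists and rules were chosen with earlier results of these data known. Shared replicate numbers were not taken as pairs. Alternatives were a −log10 q minimum of 10, lists cut to 248 peaks, overlap of 50% of the shorter peak, windows of 10 and 30 kb, other summit, width and rank definitions, a replicate block and each library left out. Calculations used Python 3.11.15, numpy 2.4.6, pandas 2.3.3, scipy 1.17.1 and matplotlib 3.10.9, and were tested on simulated data.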

Additional observations from a re-analysis of the deposited data

How the results depend on the processing

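Of 18 results, each recomputed under its alternatives, none of the 6 tests over libraries could pass 0.05 under any. With peaks of −log10 q of at least 10, regions of Orc4 without Orc1 numbered 11, mean rho across the subunits was 0.67 (main value 0.70), and the log2 width ratio over 100 kb from an end was 0.022 (main value −0.0049). With ranks by −log10 q, mean rho was 0.76. Among the 157 regions not near a tRNA gene, an alternative chosen after seeing the data, 19 (12.1%) were narrower and 45 (28.7%) ranked lower in Orc1. The cause was not tested. Leaving out each library in turn gave 20 to 84 regions of Orc1 without Orc4, 22 to 182 of Orc4 without Orc1, 81 to 109 wider and 44 to 76 narrower regions, and 9 to 11 regions with Orc1 nearer a tRNA gene. Fewer lists then had to hold the pattern, by construction. The log2 width ratio over 100 kb from an end ranged from −0.10 to 0.12, log2 covered length there from −0.50 to 0.14, and rho from 0.68 to 0.72. The labels give both subunits replicate numbers 1 and 2, but deviations of same-numbered libraries correlated at −0.15 over 200 regions, and the numbers are not taken as pairs. With a replicate block, the log2 covered length within 20 kb of an end differed by 2.29 (exact sign flip p = 0.5, the smallest possible), and 0 of 6 tests passed. The crossed pairing also gave 0 of 6. Groups of 2 libraries, unknown depth and different controls limit every comparison.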
